A study of Arabidopsis thaliana with 12 samples.

Results

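The pectin-modifying genes described here are PME61 and AT3G43270, which encode pectin methylesterases, AT1G10640 of the polygalacturonase family, and AT4G25250 and AT1G62770 of the pectin methylesterase inhibitor family. They are 5 genes of the 13286 that the annotation names on the array, and each was read by 1 of 22746 probe sets that are not array controls. All 5 passed the filter on low signal, which took a probe set if it lay above the 40th percentile of its array on at least 2 arrays. They were picked because their probe sets were among those that changed most in earlier results of these data. PME61 and AT1G10640 came from untreated eto1-4 against Col-0, AT3G43270 and AT1G62770 from 9393 against untreated eto1-4, and AT4G25250 from both 9393 and AVG against untreated eto1-4. Differences in those comparisons, and in any whose groups include the same arrays, are therefore described here with no test.

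Pectin is a polysaccharide of the plant cell wall built largely on galacturonic acid and is delivered to the wall with many of its sugar units methyl-esterified. Pectin methylesterases remove the methyl groups. Inhibitor proteins bind these enzymes and block them. Polygalacturonases and pectate lyases cut the backbone, mainly where it has been demethylated. Wall pectin is one of the materials that yields as the hypocotyl of a dark-grown seedling elongates, and ethylene shortens and thickens that hypocotyl in Arabidopsis.

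The study asked how compounds picked as antagonists of the ethylene response act on transcripts of eto1-4, a mutant that makes too much ethylene. Each of 12 arrays held RNA of whole Arabidopsis thaliana seedlings of ecotype Col-0 that were 3 days old and grown in the dark on MS medium. There were 2 arrays for each of 6 groups: wild-type Col-0, untreated eto1-4, and eto1-4 on medium with 10 µM of compound 9393, 9370 or 7303 or of AVG, an inhibitor of the ACC synthase step of ethylene synthesis. The submitters describe 2 independent sets of arrays. The labels name no solvent for the untreated groups and do not say whether the replicates were separately grown, so the spread behind each p-value is that between these arrays and may be technical. The compounds with number codes are known here by their codes alone, and ETO1 itself is not analysed here.

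The deposited signals had equal trimmed means on all arrays (500.039 to 500.045), with medians from 156 to 190.0. The control probe sets for poly-A spike RNA averaged 8.10 to 25.7 on 4 arrays, those of replicate 1 in both untreated groups and under 9393 and 9370, and 105 to 208 on the other 8, called spiked here. The same 4 arrays had the higher GAPDH 3'/5' signal ratios, a measure of RNA integrity, at 1.60 to 2.02 against 1.18 to 1.53, and all arrays of 7303 and AVG were spiked. The labels name no batch. Signal for 25S ribosomal RNA was lowest in Col-0, at 208 and 266, and reached 494 to 12724 on the remaining 10 arrays, so it differs in each comparison with Col-0 too. The array of eto1-4 replicate 1 stood apart in seed reserve genes. Its 3 measured seed reserve genes summed to 12312, against 1898 in replicate 2 and 670.0 to 2871 on the other 10 arrays. PORB was the 1 of 2 genes listed as markers of etiolated seedlings that could be read, though its transcript is not confined to such seedlings. It averaged 14940.5 in Col-0, 10718 in untreated eto1-4, 7595 with 9393, 6681 with 9370, 4472 with 7303 and 5505 with AVG, so its mean was lower in every treated group, though none of these differences from untreated eto1-4 passed the test (lowest adjusted p = 0.0700, with 7303, in limma). Of 7 root hair markers EXPA7 and EXPA18 were measured and summed to 491 and 983 in untreated eto1-4, against 245 and 379 in Col-0 and 275 to 535 under treatment. Neither passed the test in eto1-4 against Col-0 (adjusted p = 0.188 and 0.146 in limma). Of 5 root cap markers 2 were measured and summed to 632 and 858 in Col-0, 660.1 and 925 in untreated eto1-4 and 404 to 601 under treatment. One of them, AT5G54370, fell with 9370 (-1.38, adjusted p = 0.0359 in limma) and 7303 (-1.32, adjusted p = 0.0383). The other, AT1G33270, did not follow it, at 0.21 with 9370 (adjusted p = 0.625 in limma) and -0.25 with 7303 (adjusted p = 0.486). No marker of light-grown leaves or of the root endodermis was among the named genes. The part of the 25S signal, of the spike, of the GAPDH ratio and of these markers in the results below was not tested.

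**Figure D1:**
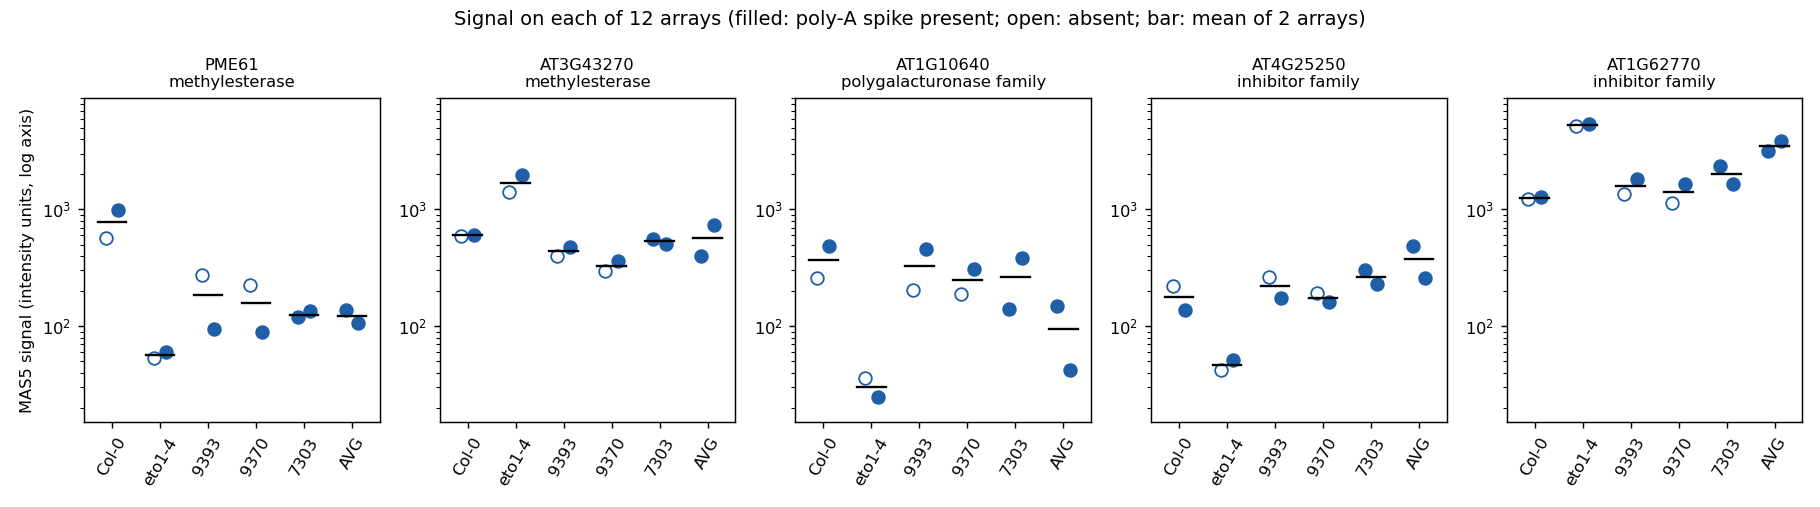
Deposited MAS5 signal of the 5 genes on each of 12 arrays, on a log axis, by group. Filled points are arrays with the poly-A spike, open points arrays without it, and bars the mean of the 2 arrays of a group. Untreated eto1-4 holds the lowest points for PME61, AT1G10640 and AT4G25250 and the highest for AT3G43270 and AT1G62770.

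In untreated eto1-4 the 2 inhibitor family genes lay on opposite sides of Col-0, and so did the 2 methylesterase genes. PME61, AT1G10640 and AT4G25250 were lower in the mutant and AT3G43270 and AT1G62770 higher. The probe sets of all 5 genes were called in this comparison, at an adjusted p under 0.05 in the limma fit to all probe sets, where 2.20% of the 14830 probe sets tested were called. The choice of the genes used these arrays and nothing is read from that count. In whole seedlings, fewer cells of a type and less RNA per cell cannot be told apart. Differences below are in log2(signal + 22.4), the offset being the 20th percentile of all signals, and are given ± SE from the fit to all 12 arrays. This scale understates the change of dim genes.

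PME61, also listed as PME35, is a pectin methylesterase gene. Its signal was 569.8 and 997 on the 2 Col-0 arrays and 53.7 and 60.3 on the eto1-4 arrays, a fitted difference of -3.29 ± 0.46. Under treatment it read 273 and 95.5 with 9393, 227 and 89.4 with 9370, 119 and 134 with 7303, and 138 and 107 with AVG. All 8 treated arrays thus lay between the highest eto1-4 array and the lowest Col-0 array. By mean signal the order was Col-0 at 783 ± 302 (SD, n = 2), 9393 at 184 ± 125, 9370 at 158 ± 96.9, 7303 at 126 ± 10.9, AVG at 122 ± 21.8 and eto1-4 at 57.0 ± 4.68. The ranges of 9393, 9370, 7303 and AVG overlapped each with the next, while Col-0 and eto1-4 stood clear of their neighbours. Against untreated eto1-4 the treated means were higher by 1.23 with 9393, 1.07 with 9370, 0.90 with 7303 and 0.86 with AVG, each ± 0.46. Against Col-0 they were at -2.06, -2.22, -2.39 and -2.43 in the same order.

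The value for 9393 and 9370 depended on which array was read. On the arrays without the spike PME61 was higher than in untreated eto1-4 by 1.95 with 9393 and by 1.71 with 9370, and on the spiked arrays by 0.51 and 0.43, with 1 array on each side. The arrays without the spike are also those with the higher GAPDH ratios. The difference between eto1-4 and Col-0 was -2.96 without the spike and -3.62 with it.

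AT3G43270 is the other methylesterase gene. It read 596 and 608 in Col-0 and 1414 and 1960.4 in untreated eto1-4, a difference of 1.43 ± 0.27. On treated arrays it read 400.4 and 479.8 with 9393, 299 and 362 with 9370, 561 and 502 with 7303, and 398 and 733 with AVG. Every treated array was below both eto1-4 arrays, and 7 of the 8 were also below both Col-0 arrays, the exception being AVG replicate 2. The order of the means was eto1-4 at 1687 ± 386 (SD, n = 2), Col-0 at 602 ± 8.96, AVG at 566 ± 237, 7303 at 532 ± 41.1, 9393 at 440.1 ± 56.1 and 9370 at 331 ± 44.6. Only Col-0 with AVG and AVG with 7303 overlapped among neighbours in this order. The differences from untreated eto1-4 were -1.87 with 9393, -2.26 with 9370, -1.61 with 7303 and -1.58 with AVG, each ± 0.27. They had the same sign on spiked and unspiked arrays, from -1.76 to -2.37.

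AT1G10640 belongs to the polygalacturonase family, whose enzymes cut the pectin backbone. Its signal was 258 and 486 in Col-0 and 36.1 and 24.7 in untreated eto1-4, the latter close to the offset, and the difference was -2.85 ± 0.58. It read 203 and 457 with 9393, 188 and 311 with 9370, 139.9 and 387 with 7303, and 149 and 42.2 with AVG. All 8 treated arrays were above both eto1-4 arrays, AVG replicate 2 by the least, and with each of 9393, 9370 and 7303 replicate 2 lay within the range of Col-0 and replicate 1 below it. The means ran from Col-0 at 372 ± 161 (SD, n = 2) through 9393 at 330.0 ± 180.1, 7303 at 264 ± 175, 9370 at 249.6 ± 87.5 and AVG at 95.6 ± 75.5 to eto1-4 at 30.4 ± 8.06. Neighbours among the first 4 overlapped, while AVG was apart from 9370 above it and from eto1-4 below it. Against untreated eto1-4 the differences were 2.65 with 9393, 2.34 with 9370, 2.30 with 7303 and 1.0 with AVG, each ± 0.58. The AVG value was 1.71 without AVG replicate 2 and 0.30 without AVG replicate 1, so a single array sets its size.

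AT4G25250 is of the methylesterase inhibitor family. It read 221 and 137 in Col-0 and 42.5 and 51.1 in untreated eto1-4, a difference of -1.51 ± 0.32. That difference was -1.91 on the unspiked and -1.12 on the spiked arrays, with 1 array on each side. With the 40th percentile of all signals as the offset it was -0.94. Under 9393 AT4G25250 read 265 and 175, with 9370 192 and 160.1, with 7303 302 and 229.9, and with AVG 487 and 258. All 8 treated arrays were above both eto1-4 arrays and above the lower Col-0 array. AVG had the highest mean at 373 ± 162 (SD, n = 2), followed by 7303 at 266 ± 50.9, 9393 at 219.9 ± 63.2, Col-0 at 179 ± 59.4, 9370 at 176 ± 22.7 and eto1-4 at 46.8 ± 6.11. Every neighbouring pair overlapped except 9370 and eto1-4. The differences from untreated eto1-4 were 1.79 with 9393, 1.52 with 9370, 2.05 with 7303 and 2.45 with AVG, each ± 0.32.

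AT1G62770, also of the inhibitor family, ran the other way. It read 1232 and 1267 in Col-0 and 5174 and 5344 in untreated eto1-4, a difference of 2.05 ± 0.25, and the value was 2.05 on the unspiked and 2.06 on the spiked arrays. It read 1349 and 1837 with 9393, 1143 and 1660.5 with 9370, 2338 and 1659 with 7303, and 3163 and 3859 with AVG. The AVG arrays lay between the other 3 treatments and untreated eto1-4, with no overlap on either side. The means were eto1-4 at 5259 ± 120.3 (SD, n = 2), AVG at 3511 ± 492, 7303 at 1999 ± 479.7, 9393 at 1593 ± 345, 9370 at 1402 ± 366 and Col-0 at 1249 ± 24.9. From 7303 down to Col-0 each group overlapped with the next. Against untreated eto1-4 the differences were -1.73 with 9393, -1.91 with 9370, -1.41 with 7303 and -0.59 with AVG, each ± 0.25.

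**Figure D2:**
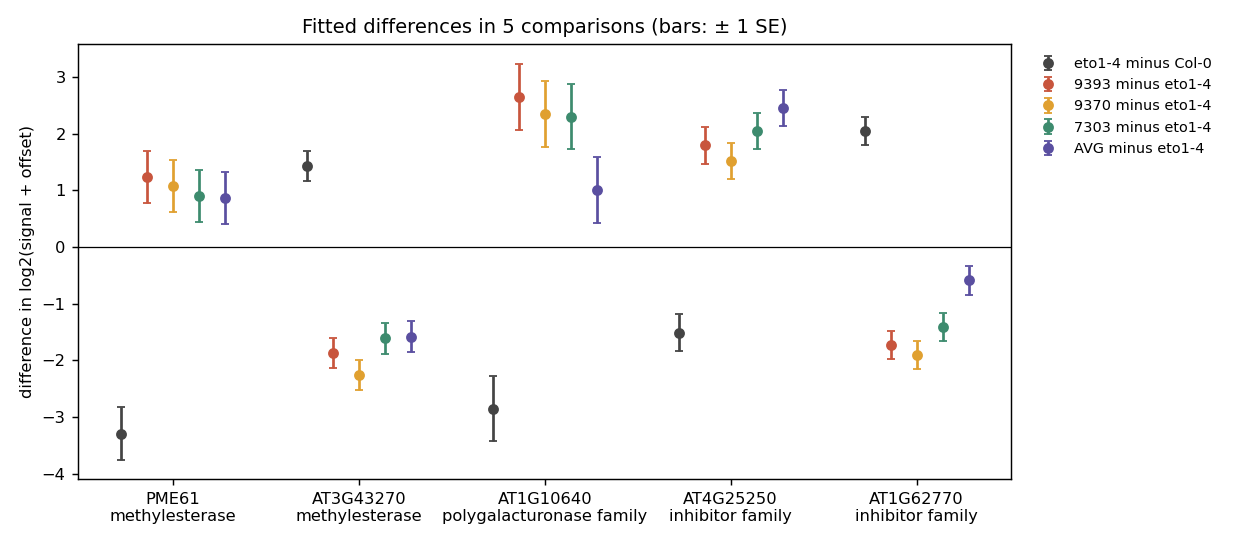
Fitted differences in log2(signal + offset) for the 5 genes, with points for untreated eto1-4 minus Col-0 and for each treatment minus untreated eto1-4, and bars of 1 SE. For every gene the 4 treatment differences have the opposite sign to the eto1-4 difference, and the comparisons share the untreated eto1-4 arrays. AVG is nearest 0 among the treatments for every gene but AT4G25250, where it is farthest (2.45).

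The 4 treatment comparisons and the comparison with Col-0 all use the 2 untreated eto1-4 arrays, so opposite signs between them are no separate evidence. The number of the 5 genes called against untreated eto1-4 was 3 with 9393 (0.661% of all probe sets tested were called), 3 with 9370 (4.05%), 3 with 7303 (4.69%) and 2 with AVG (5.32%). With 9393, 9370 and 7303 these were AT3G43270, AT4G25250 and AT1G62770. With AVG they were AT3G43270 and AT4G25250. The genes were chosen on these arrays and nothing is read from these counts.

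Comparisons whose groups share no array with the one that chose a gene were tested. There were 27 of them, 8 against Col-0 and 19 between treatments at the same dose. Their SE and p-values are not free of the choice. All groups were fitted together, so the spread of a probe set comes also from the arrays that chose the gene. Choosing genes that were called may favour a small spread. A single test passed. AT1G62770 was higher in eto1-4 with AVG than in Col-0, by 1.47 ± 0.25 (adjusted p = 0.0158, limma), or 2.77-fold on the scale with the offset, with both AVG arrays above both Col-0 arrays. In that comparison 9.20% of all probe sets tested were called. With only AVG and Col-0 fitted, so without the arrays that chose the gene, the difference was 1.47 ± 0.16 (adjusted p = 0.00434, limma). That fit also called far more probe sets, 3260 of 14830 against 1365 in the fit to all groups. The AT1G62770 difference was 1.45 on the 8 spiked arrays, where Col-0 has a lone array and so no spread of its own. With the spike as a block, a fit that called 1951 of 14830 probe sets, it was 1.34 (adjusted p = 0.0117 in limma). It was not called in limma without Col-0 replicate 1 (1.45, adjusted p = 0.0657), Col-0 replicate 2 (1.49, adjusted p = 0.157), AVG replicate 1 (1.61, adjusted p = 0.100) or AVG replicate 2 (1.32, adjusted p = 0.0822).

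For AT1G62770 the other 2 tests against Col-0 did not pass. With 7303 it stood 0.65 above Col-0 (95% interval 0.09 to 1.20, adjusted p = 0.158 in limma) and with 9370 0.14 above (-0.42 to 0.69, adjusted p = 0.868). With only the groups compared, 3117 of 14830 probe sets were called in 7303 against Col-0 and 0 in 9370 against Col-0. In the fit to all 12 arrays no probe set was called in either comparison (0% of those tested). AT3G43270 stood at -0.83 against Col-0 with 9370 (-1.44 to -0.22, adjusted p = 0.307), at -0.17 with 7303 (-0.78 to 0.43) and at -0.15 with AVG (-0.76 to 0.46). AT4G25250 stood at 0.54 with 7303 (-0.18 to 1.26), and with 9370 its mean of 176 lay beside that of Col-0 at 179 (95% interval of the log2 difference -0.72 to 0.73). Intervals are not adjusted for the number of tests.

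None of the 19 tests between treatments passed (lowest adjusted p = 0.134 in limma), while 7 had an unadjusted p under 0.05. Between treatments 0 or 1 probe set of all those tested was called, 0.00674% in 9393 against AVG and in 9370 against AVG and 0% in the other 4 pairs. AT1G62770 was lower with 9370 than with AVG by a fitted -1.33 (95% interval -1.88 to -0.77, adjusted p = 0.134) and with 7303 than with AVG by -0.82 (-1.37 to -0.26, adjusted p = 1.0). AT1G10640 was at 1.64 with 9393 over AVG (0.35 to 2.93, adjusted p = 0.315), at 1.33 with 9370 over AVG (0.04 to 2.62, adjusted p = 0.370) and at 1.29 with 7303 over AVG (0.00 to 2.58, adjusted p = 1.0). These intervals are wide enough to hold differences of several fold, and the tests do not show that the treatments act alike.

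AT3G43270 stood lower with 9370 than with 7303 by -0.65 (-1.26 to -0.05) and than with AVG by -0.68 (-1.29 to -0.07), with adjusted p of 0.735 and 0.327 in limma. For PME61 the 6 differences between treatments ran from 0.04 to 0.37 with an SE of 0.46. Their intervals reached from -0.99 to 1.41, and 4 of them changed sign on the spiked arrays. The remaining pair for AT4G25250, 9370 against 7303, stood at -0.53 (-1.25 to 0.19).

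**Figure D3:**
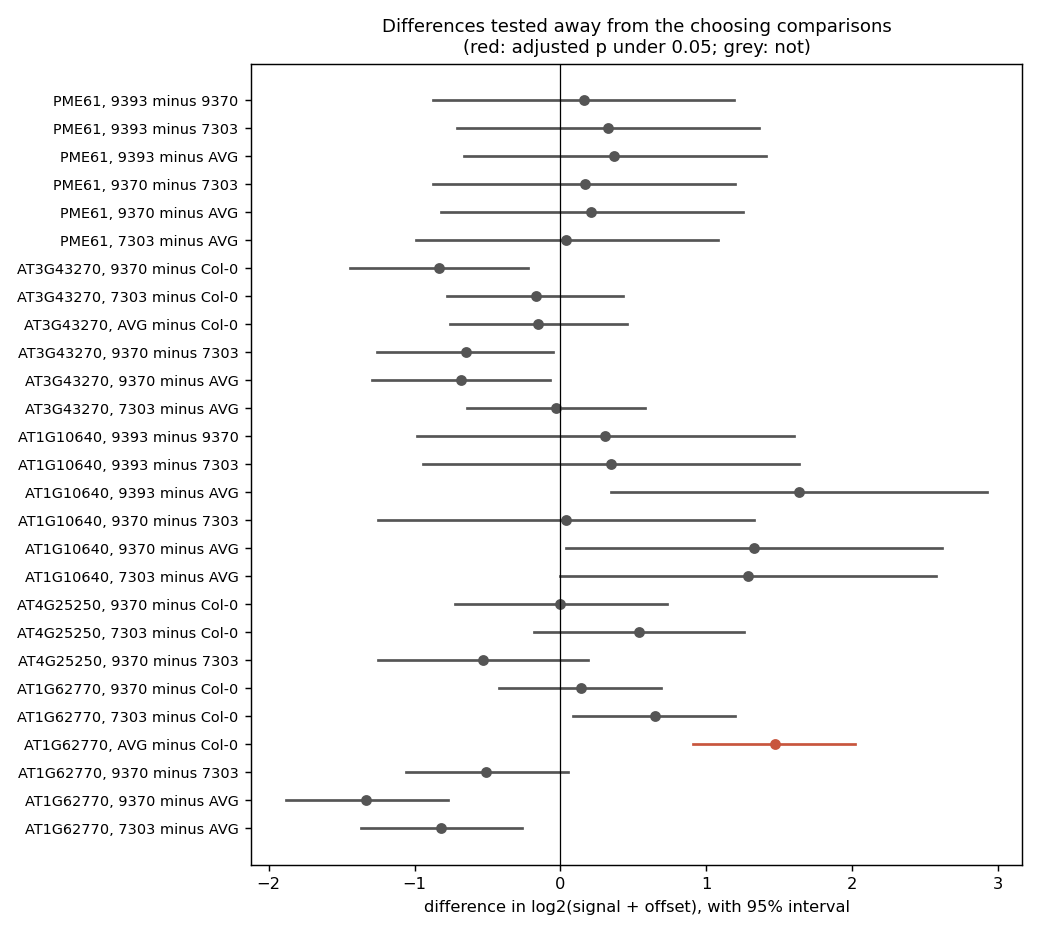
The 27 tested differences in log2(signal + offset), for pairs of groups that the choice of the gene did not use. Each has its unadjusted 95% interval, with the spread taken from the fit to all groups. AT1G62770 in AVG minus Col-0 at 1.47 is the one drawn in red for an adjusted p under 0.05. The widest intervals belong to AT1G10640.

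Over the 12 arrays the 5 genes fell on 2 sides by the sign of Pearson's r of the log2 values, those lower and those higher in untreated eto1-4. It was 0.57 between PME61 and AT1G10640, 0.42 between AT1G10640 and AT4G25250, 0.29 between PME61 and AT4G25250, and 0.77 between AT3G43270 and AT1G62770. Between the sides it was -0.86 for AT1G10640 with AT1G62770, -0.76 for AT3G43270 with AT4G25250, -0.73 for PME61 with AT1G62770 and -0.72 for AT3G43270 with AT1G10640. The 2 inhibitor family genes stood at -0.43 and PME61 with AT3G43270 at -0.36. These are descriptions over 12 arrays that share their 6 groups, and the genes were chosen for large differences between the groups.

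Among 7994 other named and tested probe sets, the genes most alike in pattern were taken by Pearson's r over the same 12 arrays. AT1G62770 was most like AT2G39980 (r = 0.962), whose mean signal was 275 in Col-0, 5105 in untreated eto1-4, 733, 721 and 1257 with 9393, 9370 and 7303 and 2716 with AVG, so it had the same order of eto1-4, AVG and 7303 at the top. AT2G43210 (0.953) and TRM19 (0.952) followed. PME61 was most like AT1G76620 (0.935), AT3G19400 (0.920) and LPR2, a multicopper oxidase gene of the root response to low phosphate (0.919). In LPR2 too the Col-0 mean was highest, at 324, and the eto1-4 mean lowest, at 132.

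AT3G43270 was most like FAAH, a fatty acid amide hydrolase gene (0.943), AT4G12590 (0.927) and the beta-glucosidase gene BGLU15 (0.924). BGLU15 read 518 in Col-0, 866 in untreated eto1-4 and 373 to 459.6 in the 4 treated groups. AT1G10640 was most like AT5G23920 (0.953), AT1G14580 (0.923) and AT4G34220 (0.914). AT1G14580 had means of 61.0 in eto1-4 and 89.7 with AVG, against 169 to 231 elsewhere. AT4G25250 was most like AT2G39410 (0.948), AT5G19930 (0.936) and AT4G02370 (0.929), with AVG highest and eto1-4 lowest for AT2G39410, at 159 and 56.7.

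Of the genes beside the members in the annotation, none that was bright enough passed the test in any of the 5 main comparisons, those of eto1-4 with Col-0 and of each treatment with eto1-4. AT1G62760, the gene next to AT1G62770 on chromosome 1 and of the same family, had group means of 133 to 249 and differed by 0.48 between eto1-4 and Col-0 (adjusted p = 0.346 in limma). AT4G25260, next to AT4G25250 on chromosome 4 and also of the inhibitor family, differed by 0.43 (adjusted p = 0.345), the opposite sign to its neighbour, with means of 3232 in Col-0, 4365 in untreated eto1-4 and 2793 to 3094 under treatment. Under the 4 treatments AT4G25260 stood at -0.51 to -0.65 against untreated eto1-4. The 2 neighbours of PME61, AT3G59000 and AT3G59020, differed by -0.04 and -0.31 in eto1-4, and AT1G10650, beside AT1G10640, by -0.52. AT1G62780, on the other side of AT1G62770, stood at -0.53. The remaining neighbours were dim or had no probe set of their own among those named.

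The other pectin genes were read from lists of 237 loci in 7 groups, the members included. Of the other loci 137 had a probe set naming them alone, and 60 of their 139 probe sets passed the filter, while 79 were dim. In eto1-4 against Col-0, 2 of the 60 rose and 1 fell, or 5.0% called against 2.20% of all probe sets tested. With 9393 none rose and 1 fell (1.67% against 0.661%), with 9370 none rose and 6 fell (10.0% against 4.05%), with 7303 1 rose and 3 fell (6.67% against 4.69%), and with AVG 1 rose and 7 fell (13.3% against 5.32%). The median differences were -0.06, -0.13, -0.21, -0.18 and -0.41 in that order, beside -0.03, -0.01, 0.01, -0.05 and -0.04 over all probe sets tested. These counts and medians are descriptions of the list.

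Among the 14 other methylesterase probe sets tested, 2 genes were called in at least 1 comparison. The share was 7.14% in eto1-4 against Col-0 (2.20% over all probe sets tested), 0% with 9393 (0.661%) and 7.14% with 9370 (4.05%). With 7303 it was 14.3% (4.69%) and with AVG 7.14% (5.32%). AT2G47550 followed the direction of AT3G43270. It read 113 and 96.7 in Col-0 and 237 and 258 in untreated eto1-4, where it rose by 1.09 ± 0.22 (adjusted p = 0.0386, limma), and it read 82.5 to 139.6 under treatment, apart from both eto1-4 arrays. It fell under 9370 (-1.19), 7303 (-0.94) and AVG (-1.25), while 9393 gave -1.18 with an adjusted p of 0.0516. ATPMEPCRD, at AT2G43050, read 11376 and 11926 in Col-0, 3587 and 5327 in untreated eto1-4, and 15390.0 and 13630.5 with 7303. It rose with 7303 by 1.72 ± 0.34 (adjusted p = 0.0279) and stood at -1.41 in eto1-4 (adjusted p = 0.0671).

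None of the 11 other inhibitor family probe sets was called in any of the 5 comparisons, and none of the 15 others of the polygalacturonase family. Over all probe sets tested 0.661% to 5.32% were called in these comparisons. Few calls or none were due among so few probe sets, and nothing is read from their absence. The medians of the inhibitor family ran from -0.09 to -0.27 and those of the polygalacturonase family from -0.35 to 0.13. AT4G25250, AT1G62770 and AT1G10640 were picked for being called, so they cannot be set against these families by a test.

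Pectate lyases, which cut demethylated pectin, held 5 genes called in at least 1 comparison, among 14 probe sets. Called were 14.3% in eto1-4 against Col-0 (2.20% over all probe sets tested), 7.14% with 9393 (0.661%) and 21.4% with 9370 (4.05%). The share was 14.3% with 7303 (4.69%) and 28.6% with AVG (5.32%). The count of 5 genes spans all comparisons and has no such share beside it. AT3G24670 was called in all 5 comparisons. It read 285 and 329 in Col-0 and 814 and 1083 in untreated eto1-4, where it rose by 1.55 ± 0.23 (adjusted p = 0.0135, limma). Under treatment it read 244 to 431, below both eto1-4 arrays, and it fell with 9393 (-1.60), 9370 (-1.65), 7303 (-1.39) and AVG (-1.18). AT4G13210 fell with 9370 (-1.98) and AVG (-2.23), and AT4G13710 fell with 7303 (-1.44) and AVG (-1.53). AT5G63180 fell with 9370 (-1.42 ± 0.26) and stood at -0.92 with 9393, -0.83 with 7303 and -0.64 with AVG, which did not pass. AT3G53190 ran the other way and fell in eto1-4 (-0.82 ± 0.17, adjusted p = 0.0442), from 268 and 298 to 144 and 158, and it rose with AVG by 0.78 (adjusted p = 0.0338).

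Of 3 pectin acetylesterase probe sets AT5G26670 fell with 9370 (-1.53) and AVG (-1.60). Of 3 on the list of pectin synthesis AT5G15740 fell with 9370 (-0.86) and AVG (-1.02), and AT3G49720 fell with AVG (-1.09 ± 0.20), from 3304 and 3399 in untreated eto1-4 to 1302 and 1887. No gene on the list of 2 polygalacturonase inhibitors was measured. Of these 22 calls in all, 1 was kept when the array of eto1-4 replicate 1, the one high in seed reserve genes, was left out, and 8 when replicate 2 was. Leaving out a Col-0 array kept 12 and leaving out a 7303 array kept 11, whichever it was. For AVG the numbers were 11 with replicate 1 left out and 16 with replicate 2. The spiked arrays alone kept 9, and fitting only the groups compared kept 6. All 22 kept their sign in these settings.

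**Figure D4:**
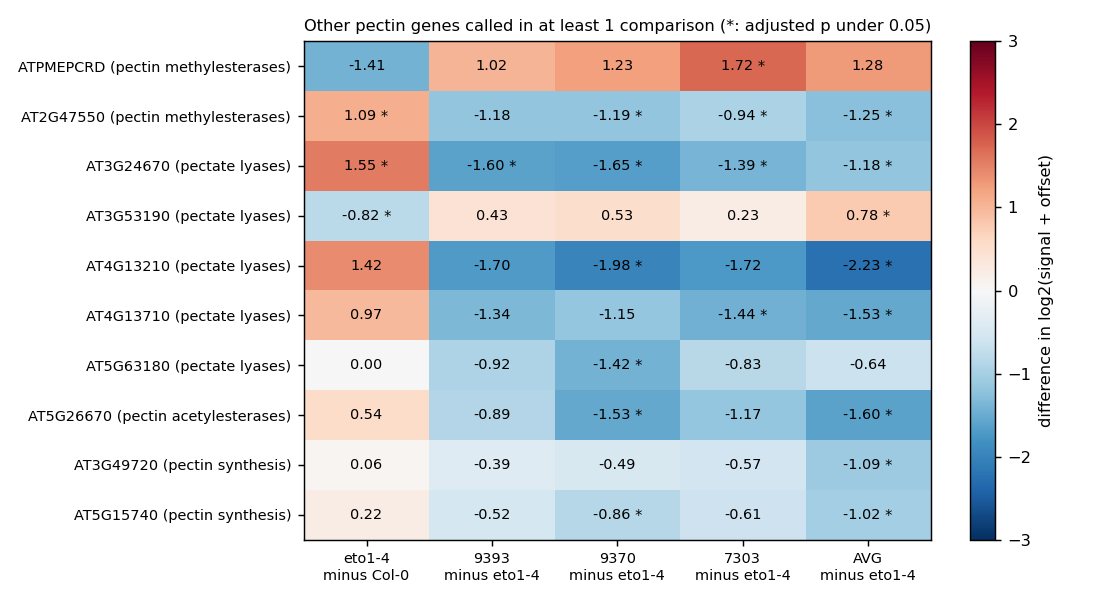
Differences in log2(signal + offset) for the 10 other pectin genes called in at least 1 of 5 comparisons, with genes in rows, comparisons in columns, and red for higher and blue for lower in the first-named group. An asterisk marks an adjusted p under 0.05. AT3G24670 carries one in each column, and most of the calls under treatment are blue.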

How the data were processed

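Whole-seedling RNA was measured on 12 Affymetrix arrays in 6 groups of 2, grouped by the titles. The authors deposited linear intensities made with MAS5, per the submitters' processing notes, whose version and settings the sources used here do not give. The deposited intensities were used as scaled by the authors, taken to log2 after adding 22.4, and 64 controls and dim probe sets were left out, so that 14830 of 22810 were tested. No detection calls were used, no pair of arrays was identical, and the number of arrays limits the precision. All groups were fitted together in limma 3.58.1 (R 4.3.3) with an intensity trend, with Benjamini-Hochberg adjustment within each of 15 comparisons and a threshold of 0.05, two-sided. In simulated data for 7303 against AVG with 200 of 14830 probe sets changed, it recovered 34.0% of log2 changes of 1, 82.1% of 2 and 95.0% of 3, and 5.86% of its calls were false. Names came from GEO's platform table and, through gene identifiers, from the annotation of TAIR10.1. Of the probe sets that are not controls, 13436 named 1 gene, 503 several and 77 a gene without a locus tag, and 8730 were not listed. The members and lists were chosen with earlier results of these data known, and the lists assign loci to families from general knowledge. Named genes are the members, their neighbours, the 3 most alike genes of each and the other listed genes called in any of 5 comparisons. Alternatives were the offset, the filter, the scaling, the replicate number and the spike as blocks, the spiked arrays alone, only the groups compared, no trend, and each array left out.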

Additional observations from a re-analysis of the deposited data

How the results depend on the processing

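Of the fitted differences of the 5 genes that were described without a test, those in the 5 main comparisons kept their sign under every alternative run. In eto1-4 against Col-0, PME61 ran from -3.70 with an offset of 1 to -2.50 with the 40th percentile. Between the same settings AT1G10640 ran from -3.53 to -1.87 and AT4G25250 from -1.88 to -0.94. PME61 against untreated eto1-4 ran from 0.51 on the spiked arrays to 1.89 without 9393 replicate 2 under 9393, and from 0.43 to 1.65 without 9370 replicate 2 under 9370. Col-0 has a lone array, with no spread of its own, when only the spiked arrays are used. The test of AT1G62770 in AVG against Col-0 passed under all 10 alternatives other than those that leave out 1 array, at 1.34 to 1.53. It did not pass when 1 array of Col-0 or AVG was left out, so 0 to 1 of the 27 tests passed with 1 array left out, where the lone array is assumed to vary like the other groups. With only the groups compared 2 passed, the second being AT1G62770 in 7303 against Col-0 (0.65, adjusted p = 0.0497 in limma). With the replicate block the AT1G62770 difference was 1.47 (adjusted p = 0.0143), and the block ended no call named here. The replicate numbers were not taken as pairs, since not every correlation of the difference between replicates was over 0.1 between groups. Among Col-0, eto1-4, 9393 and 9370, whose replicate 1 lacks the spike, it was 0.026 for Col-0 with 9370 and 0.106 to 0.781 for the other 5 pairs, and with 7303 or AVG it was -0.272 to 0.09. With the block the calls over all probe sets came to 464 for eto1-4 minus Col-0 (326 without it), 164 under 9393 (98) and 1008 under 7303 (696).

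None of the differences that reversed had passed the test. On the spiked arrays PME61 stood at -0.33 in 9393 against 7303, -0.29 in 9393 against AVG, -0.41 in 9370 against 7303 and -0.37 in 9370 against AVG, and with the spike as a block at -0.03 in 9370 against 7303. AT1G10640 in 9370 against 7303 was -0.06 after quantile normalization, and AT4G25250 in 9370 against Col-0 was -0.0017 with the larger offset. With 1 array left out, PME61 ran from -0.50 to 0.82 in 9393 against 9370, -0.33 to 0.99 in 9393 against 7303, -0.29 to 1.03 in 9393 against AVG, -0.41 to 0.75 in 9370 against 7303, -0.37 to 0.79 in 9370 against AVG and -0.11 to 0.20 in 7303 against AVG. AT3G43270 ran from -0.57 to 0.28 in AVG against Col-0 and -0.45 to 0.40 in 7303 against AVG. AT1G10640 ran from -0.24 to 0.86 in 9393 against 9370, -0.32 to 1.02 in 9393 against 7303 and -0.63 to 0.71 in 9370 against 7303. AT4G25250 ran from -0.30 to 0.31 in 9370 against Col-0 and AT1G62770 from -0.13 to 0.40. The cause was not tested.

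The counts of other pectin genes moved with the setting. In eto1-4 against Col-0 they were 4 up and 5 down with the spike as a block, 1 up on the spiked arrays, 2 down with the replicate block, and 0 down with no filter, after median centring or with only the groups compared. Under 9393 there was 1 up and 5 down with the spike as a block, 2 down with the larger offset, after median centring or without the trend, and 0 down on the spiked arrays or with only the groups compared. Under 9370 there were 3 up and 12 down with the spike as a block, 1 up with the replicate block or on the spiked arrays, and 0 down with only the groups compared. Under 7303 1 was down with an offset of 1, 5 with the larger offset or the spike as a block, 6 with the replicate block and 7 with only the groups compared. Under AVG 2 were up after median centring and with either block, 0 were up with no filter or with only the groups compared, and there 2 were down. With 1 array left out the counts up and down ran from 0 to 2 and 0 to 3 in eto1-4, 0 to 0 and 0 to 1 under 9393, 0 to 1 and 0 to 6 under 9370, 0 to 1 and 0 to 6 under 7303, and 0 to 2 and 0 to 9 under AVG. The number of all probe sets called ran from 2 to 942 in eto1-4 against Col-0, from 0 to 578 under 9393, 1 to 1591 under 9370, 2 to 1010 under 7303 and 4 to 1123 under AVG, and from 0 to 3260 in AVG against Col-0. In 7303 against Col-0, where 0 were called, 354 were with the replicate block and 3117 with only the groups compared, and on the spiked arrays 386 were called in 9393 and 558 in 9370 against Col-0.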
